A study of Oryza sativa with 35 samples.

Results

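Actin depolymerizing factors are described here for 3 rice genes, ADF-1 (LOC4330233), ADF-6 (LOC4336623) and ADF-9 (LOC4343240), each read by 1 probe set, 3 of the 57258 rice probe sets of the Affymetrix Rice Genome Array. The rule names the 3 probe sets and has no threshold. They were chosen by their signal across organs on these same arrays, so their levels are given as a description, without a test. The gene table holds 10 genes with the symbol ADF, and 9 of them have a probe set. No probe set other than these 3 is paired with ADF-1, ADF-6 or ADF-9. The platform annotation names genes for 22531 probe sets, and only the 22436 with exactly 1 gene were used. A probe set outside these could still read an ADF gene.

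The study measured total RNA of organs of rice (Oryza sativa L. cv. Nipponbare) at heading, the stage at which the panicle leaves the flag leaf sheath, on 35 arrays of 14 groups. All plants were of this 1 cultivar, without a mutation or treatment in any group, and were raised in soil in an irrigated greenhouse with added light. There were 3 arrays each of flowers before anthesis, of panicle branches, of both ends of internode I (the uppermost stem segment), of nodes I and II, of 3 parts of the flag leaf blade (tip, middle, base) and of the upper flag leaf sheath, and 2 of the sheath's base. Whole blades of the flag leaf, of leaf 2 and of leaf 4, counted down from the flag leaf, had 1 array each.

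Actin depolymerizing factors are small proteins of the ADF/cofilin family that bind actin monomers and filaments, cut filaments and speed the loss of monomers from their ends. With profilins, formins and villins they set how fast filaments turn over. Plants carry several ADF genes; in Arabidopsis, lily and maize some of them are expressed mainly in pollen, where actin turnover accompanies the growth of the pollen tube, and others in most tissues.

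Levels are log2 of the quantile-normalized signal, in which a step of 1 is a 2-fold change. The table used here carries no detection calls, so the median of all values, 5.83, serves as a guide to dim signal. Pearson correlations between arrays of a group of 3 were 0.917 to 0.951, and the 2 arrays of the sheath base correlated at 0.864. The 5 measured floral organ genes of the MADS family were all highest in the flower, the silicon transporter genes Lsi2 and Lsi6 in node I and the cellulose synthase genes CESA4, CESA7 and CESA9 of the secondary wall in the base of internode I. The green tissue genes RBCS, PSB28, PORA and GLK1 were highest in the panicle branch, LFNR1 in the blade base and ndhM in the blade tip. Dividing cell genes were highest in different organs: node II, the sheath base and the flower. The second array of the flag blade middle stands apart for genes that are bright in the flower, as described below, and the order of organs, the correlations and the closest genes are also given without it.

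ADF-1, ADF-6 and ADF-9 were bright on the 3 flower arrays and dim nearly everywhere else. ADF-1 read 14.28, 14.26 and 14.23 in the flower, from deposited signals of 20851, 19799 and 19190. ADF-6 read 13.04, 12.67 and 13.07, from deposited signals of 8628, 6465 and 8635. ADF-9 read 14.12, 13.87 and 14.01, from deposited signals of 18934, 15309 and 17224. For each of the 3 genes every flower array lay above all 32 other arrays.

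Outside the flower ADF-1 ranged from 0.81 to 8.44 with a median of 5.16, and 26 of the 32 arrays were below 5.83. ADF-6 ranged from 1.98 to 7.38 with a median of 4.80, and again 26 of 32 arrays were below 5.83. ADF-9 ranged from 0.41 to 8.41 with a median of 4.78, with 28 of 32 arrays below it. The median deposited signals on these 32 arrays were 32.6 for ADF-1, 27.7 for ADF-6 and 26.2 for ADF-9.

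The gap between the flower and the brightest other array was wide for each gene. The dimmest flower array of ADF-1 was 55.3-fold above the brightest other array, the second of the flag blade middle, and 164.5-fold above the brightest without that array, the first of the blade base at 6.87. For ADF-9 the same ratios were 44.1-fold and, without the second blade middle array, 121.4-fold. For ADF-6 the ratio was 39.2-fold, against the first array of the internode base, and leaving out the blade middle array did not touch it.

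**Figure D1:**
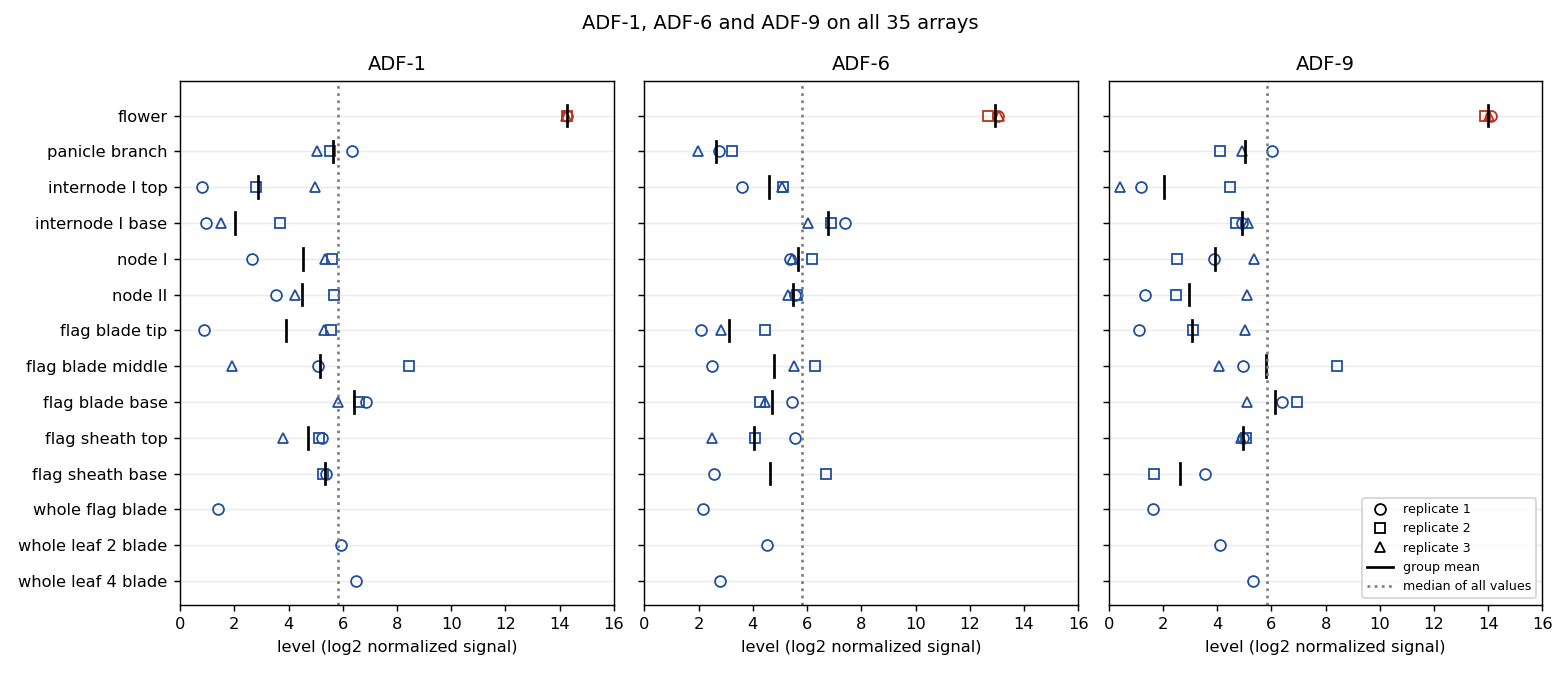
Levels of ADF-1, ADF-6 and ADF-9 (log2 normalized signal, horizontal axis) on all 35 arrays by organ, with replicates as circles, squares and triangles, group means as black bars and the median of all values, 5.83, as a dotted line. The flower arrays, in red, lie between 12.67 and 14.28, and the second array of the flag blade middle (square) is the highest of the rest for ADF-1 and ADF-9.

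The panicle branch, the axis that bears the flowers and the nearest organ sampled, had low levels of all 3 genes. ADF-1 read 6.35, 5.54 and 5.04 there, ADF-6 read 2.75, 3.22 and 1.98, and ADF-9 read 6.03, 4.11 and 4.92. The flower mean exceeded the panicle branch mean by 8.62 ± 1.31 (limma's standard error, n = 3 against 3) for ADF-1, or 392-fold, by 10.28 ± 0.92 for ADF-6, or 1240-fold, and by 8.98 ± 1.15 for ADF-9, or 505-fold. Since the lower values are near the floor, these folds depend on how low signals are treated: on the scale of log2(signal + 16) the differences were 8.20, 8.43 and 8.36. The standard errors come from the spread over all 11 replicated groups, most of which is spread among dim values.

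Of the 9 measured genes of an anther and pollen list (17 were looked for), 2 were called higher in the flower than in the panicle branch (limma, adjusted p under 0.05 and at least 2-fold, the rule used below), EXPB9 (adjusted p = 0.00417) and EXPB10 (adjusted p = 3.2e-07), where 12.7% of all probe sets tested were called higher. GAMYB, RTS and PTC1 were not called, and CYP703A3, TDR, EAT1 and C6 were too dim to be tested. Of the 9 genes 6 were highest in the flower, and their summed deposited signal was 64907 to 78487 on the flower arrays against 2401 to 2475 in the panicle branch. Most of the flower sum came from EXPB9 and EXPB10, beta expansins of the family of group 1 grass pollen allergens, at means of 15.32 and 14.87 in the flower, and without both the sum was 1708 to 2277 against 1040 to 1232. Among the other 7 genes, CYP703A3, TDR, RTS, C6 and PTC1 had flower means of 4.65 to 5.62, below the median of all values, and EAT1 had 3.12. GAMYB was bright, with a mean of 10.78 in the flower and 10.0 in the panicle branch. The part of anther and pollen cells in the levels of ADF-1, ADF-6 and ADF-9 was not tested, and in whole organs fewer cells of a type and less RNA per cell cannot be told apart.

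Below the flower the order of organs differed among the genes, with wide spread within groups. For ADF-1 the blade base came next with a mean of 6.42 ± 0.55 (SD, n = 3; 6.87, 6.58 and 5.81), followed by the panicle branch at 5.64 ± 0.66 and the sheath base at 5.32 (5.39 and 5.26). The blade middle had a mean of 5.15 (5.09, 8.44 and 1.93), which fell to 3.51 without its second array, from the place after the sheath base to one below the blade tip. The sheath top, node I and node II had means of 4.70, 4.53 and 4.48. The blade tip at 3.90, the internode top at 2.86 (0.81, 2.78 and 4.99) and the internode base at 2.04 (0.95, 3.67 and 1.5) were lowest. Each group's arrays overlapped those of its neighbours in this order, apart from the step of 7.84 from the flower to the blade base. Without the second blade middle array the sheath base also lay above its next neighbour, the sheath top, with no overlap.

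For ADF-6 the base of internode I came next with 7.38, 6.90 and 6.04 and a mean of 6.77 ± 0.68 (SD, n = 3). Node I (5.36, 6.17 and 5.44) and node II (5.54, 5.61 and 5.28) followed with means of 5.66 and 5.48. The lowest means were 3.11 in the blade tip and 2.65 ± 0.62 in the panicle branch. ADF-6 was thus the one of the 3 genes whose highest levels outside the flower lay in the stem, and the one whose panicle branch came last. The blade middle came after node II with a mean of 4.76 (2.48, 6.28 and 5.53), and with 4.00, below the sheath top, without its second array. Again each group overlapped the next in the order below the flower, with and without that array.

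The 3 arrays of the internode base all exceeded the 3 of its top for ADF-6 (3.60, 5.11 and 5.09), with a difference of 2.17 ± 0.92, or 1.61 on log2(signal + 16). In the sheath base ADF-6 read 2.55 on one array and 6.68 on the other, which cover most of its range outside the flower. The difference of sheath base from sheath top (5.54, 4.06 and 2.51) was 0.58 ± 1.03 and took the values -1.49 and 2.64 without the second and without the first sheath base array, so no direction is given.

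For ADF-9 the blade base followed the flower with 6.38, 6.95 and 5.09 and a mean of 6.14 ± 0.95 (SD, n = 3). The blade middle had a mean of 5.81 (4.95, 8.41 and 4.07), and the panicle branch, sheath top and internode base had means of 5.02, 4.97 and 4.91. Without its second array the blade middle had 4.51, below these 3 organs. Node I, the blade tip, node II, the sheath base and the internode top had means of 3.92, 3.09, 2.97, 2.62 and 2.03. Neighbours in this order overlapped, with and without that array.

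The internode base (4.91, 4.68 and 5.12) was above the internode top (1.20, 4.47 and 0.41) for ADF-9 by 2.88 ± 1.15, which shrank to 1.01 on log2(signal + 16). The sheath went the other way: its base read 3.56 and 1.68 and its top 4.96, 5.05 and 4.89, a difference of -2.35 ± 1.28, or -1.03 with the offset. In the blade, base exceeded tip (1.12, 3.12 and 5.02) by 3.05 ± 1.15, or 1.66 with the offset. All of these arrays but 2 of the blade base lay under 5.83, so these differences are among dim values.

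In the blade ADF-1, like ADF-9, was higher at the base than at the tip. Its base arrays were all above those of the tip (0.87, 5.55 and 5.29), with a difference of 2.52 ± 1.31, or 1.37 with the offset. Without the first tip array the difference was 1.00. In the sheath ADF-1 differed by 0.62 ± 1.47 between base and top, and in the internode by -0.82 ± 1.31, which became 0.24 without the third array of the top. The whole blades, with 1 array each, read 1.39 in the flag leaf, 5.93 in leaf 2 and 6.48 in leaf 4 for ADF-1. ADF-9 had the same order with 1.64, 4.11 and 5.32, and ADF-6 had 2.15, 4.51 and 2.77. These 3 arrays have no replicate check.

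Between nodes and internode I, taken as the mean of both nodes against the mean of its top and base, ADF-1 differed by 2.05 ± 0.93, ADF-6 by -0.12 ± 0.65 and ADF-9 by -0.02 ± 0.81. With the offset of 16 the value for ADF-1 was 0.80. From internode top to panicle branch ADF-1 differed by 2.78 ± 1.31 and ADF-9 by 2.99 ± 1.15, with 1.31 and 1.12 after the offset, and ADF-6 by -1.95 ± 0.92, with -0.88. The 2 comparisons with the panicle branch share its 3 arrays.

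Over the 32 arrays outside the flower ADF-1 and ADF-9 varied together in part, with Pearson's r of 0.49 and Spearman's rho of 0.51, and an r of 0.40 over 31 arrays without the second blade middle array. ADF-1 and ADF-6 had an r of -0.01 and a rho of 0.02, and ADF-6 and ADF-9 had 0.07 and 0.05. These are descriptions over arrays that share groups and their array-wide signal.

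The second array of the flag blade middle was the brightest array outside the flower for ADF-1 and ADF-9. ADF-1 read 8.44 on it against 5.09 and 1.93 on the other arrays of the blade middle. ADF-9 read 8.41 against 4.95 and 4.07, and ADF-6 read 6.28 against 2.48 and 5.53. As shares of the mean flower signal these 3 levels were 1.69% for ADF-1, 1.91% for ADF-9 and 0.838% for ADF-6.

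Most genes with the widest flower margin did the same on that array. Among the probe sets tested, 315 had every flower array at least 5 log2 units above every other array when the blade middle and the 3 ADF probe sets were left aside. Of these, 270 (85.7%) were higher on the second blade middle array than on the other arrays of that group, against 33.1% of the 38330 other probe sets. Their median was 1.78% of the flower signal on that array, against 0.177% and 0.172% on the other arrays of the blade middle. The share of them at or above 5.83 was 70.2% on it, against 10.2% and 12.4% on those arrays. Over all other arrays outside the flower the medians were 0.122% to 0.736% and the shares 7.0% to 50.2%. Outside the blade middle, low values on these arrays were a condition for choosing the probe sets. Those values are therefore partly set by the choice, and only the blade middle arrays were free of it.

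The same 315 probe sets were also above most arrays in the blade base, the panicle branch and the whole blade of leaf 4. Their medians were 0.556%, 0.736% and 0.362% of the flower signal on the blade base arrays, 0.661%, 0.593% and 0.472% on those of the panicle branch and 0.403% in leaf 4. ADF-1 stood at 0.524%, 0.445% and 0.255% in the blade base and ADF-9 at 0.434%, 0.660% and 0.181%, the organ in which both were second to the flower. ADF-6 departed from this pattern in several organs. In the internode base it stood at 2.03%, 1.35% and 0.836% while the medians of the 315 were 0.170%, 0.171% and 0.156%. In the nodes it stood at 0.444% to 0.943% against medians of 0.122% to 0.187%. There ADF-6 was dim, below 5.83 on every array but the second of node I (6.17). Its flower signal was also lower than that of ADF-1 and ADF-9, and a dim signal makes a larger share of a lower flower signal. In the panicle branch it lay below the medians, at 0.109%, 0.134% and 0.0693%.

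The summed signal of the 9 anther and pollen genes was 7966 on the second blade middle array and 618 and 830 on the others of its group. It was 1786, 2512 and 1165 in the blade base and 404 to 558 in the internode base. Nearly all of the rise was EXPB9, which read 2.92, 12.82 and 6.89 on the 3 blade middle arrays, and the other 8 genes summed to 610, 889 and 721. Of the 9 genes 7 were highest on the second of these arrays, and CYP703A3 and PTC1 were not. The 5 floral organ MADS genes, though highest in the flower, summed to 885, 906 and 766 on these arrays. That sum is mostly MADS16, which read 9.64, 9.53 and 9.30. Of the 5 genes 3 were highest on the second array, at levels below 5.83, and MADS4 and MADS16 were not. MADS6 read 1.05, 4.67 and 0.72, MADS58 read 4.66, 5.58 and 4.92, and MADS3 read 4.66, 4.91 and 3.77. The part of anther or pollen RNA in these levels was not tested.

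**Figure D2:**
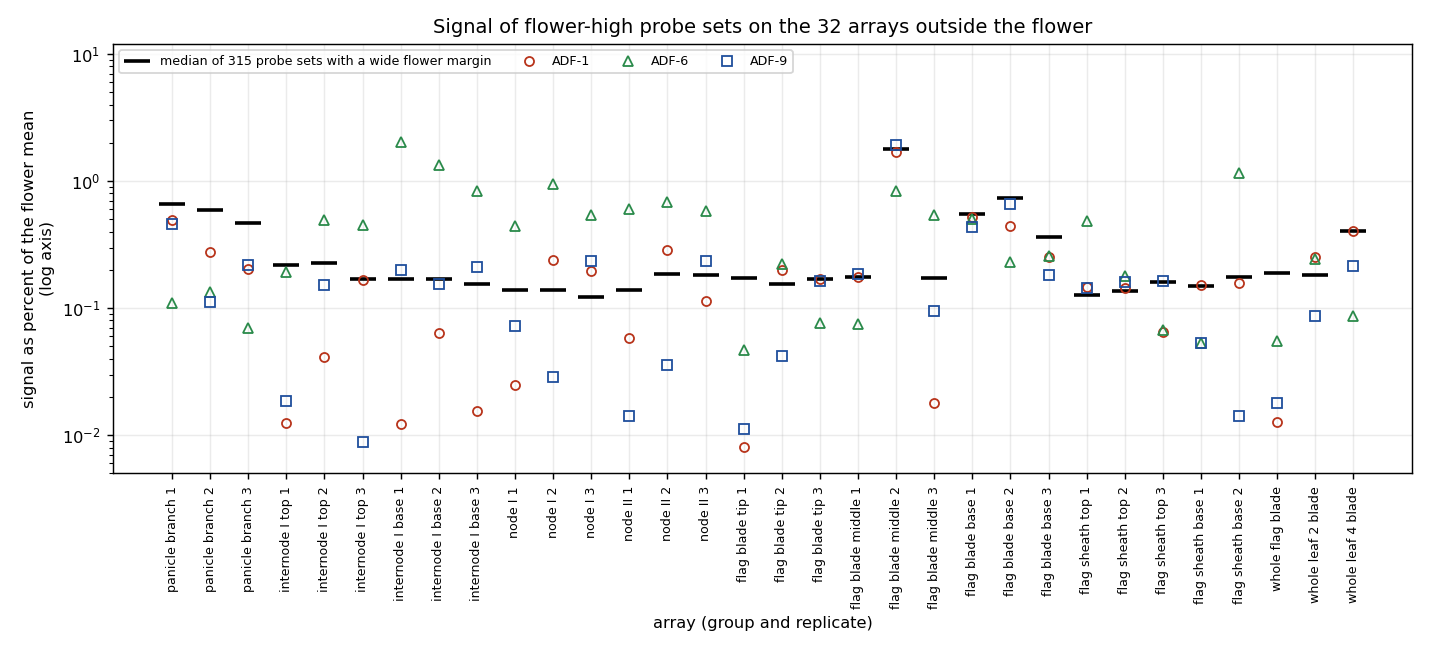
Signal of ADF-1 (circles), ADF-6 (triangles) and ADF-9 (squares) on each of the 32 arrays outside the flower, as percent of the mean flower signal on a log axis, with the median of 315 probe sets of wide flower margin as black bars. On the second flag blade middle array the median is 1.78% and ADF-1 and ADF-9 lie at 1.69% and 1.91%, and in the internode base ADF-6 lies at 0.836% to 2.03%, above the medians of 0.156% to 0.171%.

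None of the other 6 ADF genes with a probe set had a flower level as far above the other organs as ADF-1, ADF-6 and ADF-9. ADF-3 has no probe set among those annotated to exactly 1 gene. It lies beside ADF-4 in the gene table, and the ADF-4 probe set is of a type (suffix _s_at) that can bind transcripts of more than 1 gene. The range of group means over the 11 replicated groups was 12.22 for ADF-1, 10.28 for ADF-6 and 11.97 for ADF-9, against 4.90 for ADF-10, 3.09 for ADF-5, 2.99 for ADF-11, 1.91 for ADF-7, 1.40 for ADF-4 and 1.34 for ADF-2. Without the flower the ranges of the 3 were 4.38, 4.12 and 4.11.

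Across the 11 group means ADF-1 and ADF-9 had an r of 0.908, ADF-6 and ADF-9 of 0.832 and ADF-1 and ADF-6 of 0.765, values to which the flower contributes most. Without the second blade middle array these were 0.905, 0.838 and 0.772. With the other 6 genes the 3 had r between -0.651 (ADF-6 and ADF-11) and 0.511 (ADF-6 and ADF-5), or -0.678 and 0.532 (ADF-1 and ADF-10) without that array. These correlations describe 11 organ means and have no test.

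The other genes were tested with limma across 38648 probe sets, and a gene was called at a Benjamini-Hochberg adjusted p under 0.05 with at least a 2-fold difference. ADF-10 read 8.87, 8.57 and 9.36 in the flower and 7.30, 7.17 and 7.68 in the panicle branch. It was higher in the flower by 1.55 ± 0.53 (limma, adjusted p = 0.0217), a call that was lost with array medians set equal (0.0502) and without the third flower array (0.0868) or the first or second panicle branch array (0.0537 and 0.0666). The first array of node I, at 8.48, came within 0.09 of its dimmest flower array, where the corresponding gap was 5.79 for ADF-1, 5.29 for ADF-6 and 5.46 for ADF-9.

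ADF-10 was also higher in the nodes than in internode I by 2.05 ± 0.38 (adjusted p = 0.000106). In the internode base it read 5.85, 3.32 and 4.28, against 7.03, 7.43 and 6.99 in the top, a fall of 2.67 ± 0.53 (adjusted p = 0.000226). ADF-6 and ADF-9 had higher means in the base, so the direction in the internode was not shared by the family.

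ADF-5 had its highest levels in the internode base, at 13.45, 13.51 and 13.56, against 11.10, 10.72 and 10.48 in the top. The difference was 2.74 ± 0.44 (limma, adjusted p = 2.07e-05), and in the flower (12.26, 12.58 and 12.01) it exceeded the panicle branch by 1.49 ± 0.44 (adjusted p = 0.00894). ADF-7 rose in the internode base by 1.23 ± 0.22 (adjusted p = 7.97e-05), and its flower mean exceeded that of the panicle branch by 0.87 ± 0.22, under 2-fold.

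ADF-11 was lowest in the flower, with 10.45, 10.33 and 10.58, below all 32 other arrays, which ranged from 10.76 to 13.65. It was lower there than in the panicle branch by 1.49 ± 0.23 (limma, adjusted p = 1.21e-05). Its highest means were 13.44, 13.37 and 13.07 in the blade tip, base and middle. ADF-2 and ADF-4 differed by less than 2-fold in every comparison, and their largest differences were 0.55 and 0.62 in the sheath base against its top.

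**Figure D3:**
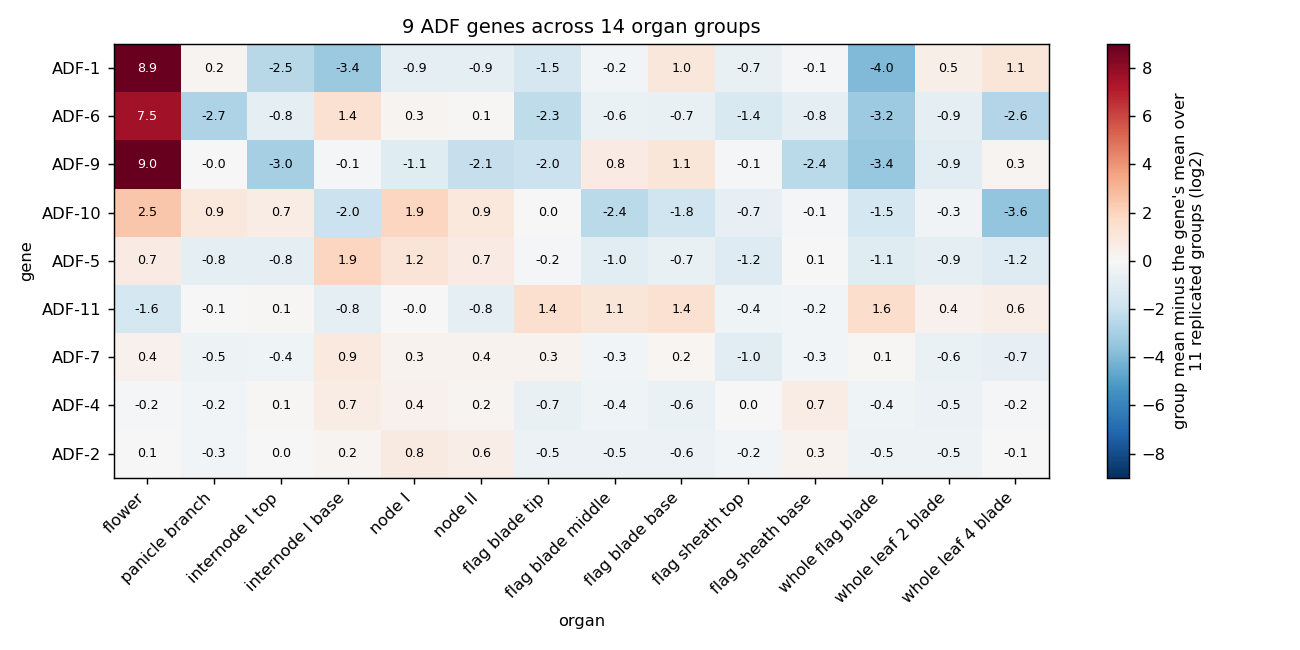
Group mean minus the gene's own mean over the 11 replicated groups (log2, colour and number) for the 9 ADF genes with a probe set in all 14 organ groups, with the whole blades as single arrays. ADF-1, ADF-6 and ADF-9 share the one dark column, the flower, while ADF-11 is lowest there and ADF-5 and ADF-7 are highest in the internode base.

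The genes around the actin filament were taken by symbol in 4 lists: the other ADF genes, actins and actin-related proteins, filament regulators (formins, villins, NAP1 and AIP1) and the Rac/ROP small GTPases, which act upstream of actin in plant cells. AIP1 was matched by its symbol alone, and whether it encodes an actin-interacting protein was not settled. It stays in the counts below and was called in no comparison. No profilin, fimbrin or myosin was matched by symbol. Of the 39 genes with a probe set 38 passed the filter on dim values, and FH2 did not.

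Between flower and panicle branch 11 of these 38 genes were higher and 4 lower (39.5% called), where 28.7% of all 38648 probe sets tested were called, 12.7% higher and 15.9% lower. The median of the 38 differences was 0.28, against -0.18 for all probe sets. VLN4, a villin, of the family of proteins that bundle and cut actin filaments, had the largest difference, at 7.21 ± 0.77 (limma, adjusted p = 9.19e-08), and 9.25 ± 0.66 at its second probe set. Its means were 11.67 in the flower and a dim 4.46 in the panicle branch, and on log2(signal + 16) the difference was 6.42, still the largest of the called genes.

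The villins VLN1 and VLN2 were higher in the flower by 3.02 ± 0.90 (adjusted p = 0.00908), or 1.82 with the offset, and 2.39 ± 0.25 (adjusted p = 5.77e-08). Among the formins, which start and lengthen filaments, FH11 was higher by 2.58 ± 0.23 and FH6 by 2.45 ± 0.39, while FH15 was lower by 2.87 ± 0.50 on the log2 scale. A second, dim probe set of FH6 differed by 0.09 ± 1.07. The other 9 filament regulators tested were not called.

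The actin gene ACT1 was higher in the flower by 2.71 ± 0.30 (limma, adjusted p = 1.97e-07), and by 1.87 ± 0.23 at its other probe set. ACT2 was higher by 1.18 ± 0.35 (adjusted p = 0.00824), or 0.82 without the second panicle branch array, where the call was lost. ACT7 was lower by 1.15 ± 0.18, and its other probe set by 0.82, under 2-fold. ARP9, an actin-related protein of the group found in the nucleus in other plants, was lower by 1.41 ± 0.21.

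Of the 7 Rac genes, OsRac6 was higher in the flower by 4.25 ± 0.42 (limma, adjusted p = 3.35e-08), from a mean of 9.10 in the panicle branch to 13.35. OsRac2 was called at 2.17 ± 0.82 (adjusted p = 0.0367), and the call was lost in 7 alternatives, among them the fits that leave out any 1 flower array. The other 5 were not called.

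In the internode base 14 of the 38 genes were higher than in its top and 5 lower (50% called), where 32.5% of all probe sets were called, 13.8% higher and 18.7% lower. VLN1 had the largest difference, 7.54 ± 0.90 (limma, adjusted p = 3.38e-07), from a dim mean of 3.88 in the top to 11.42 in the base. On log2(signal + 16) it was 6.45, again the largest of the called genes. OsRac4 was higher by 3.64 ± 0.27, OsRac6 by 3.51 ± 0.42, OsRac3 by 2.00 ± 0.21 and OsRac7 by 1.52 ± 0.47, and OsRac1, a GTPase known in rice for its part in defence, was lower by 1.89 ± 0.25. ACT1 was higher by 2.13 ± 0.30 and ARP3, a subunit of the Arp2/3 complex that branches filaments, by 1.63 ± 0.26.

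VLN4 was called in the internode base at 2.10 ± 0.77, but its second probe set differed by -0.48 ± 0.66 and the call was lost in 5 alternatives. FH13, VLN2, VLN5 and FH6 were higher by 1.33, 1.14, 1.12 and 1.10. VLN5 differed by 0.09 at another of its probe sets, and the call of FH6 was lost in 5 alternatives, including both other scalings. FH15, ARP4 and ARP9 were lower in the base by 2.80, 1.24 and 1.19. OsRac6, ACT1, VLN1, VLN2, VLN4, FH6 and ADF-5 were called higher both in the flower and in the internode base, 7 of the 11 and of the 14, and FH15 and ARP9 lower in both. That is 18.4% of the 38 genes higher in both and 5.26% lower in both, where 4.22% and 8.07% of all probe sets tested were. These comparisons share no arrays but use 1 common estimate of spread.

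**Figure D4:**
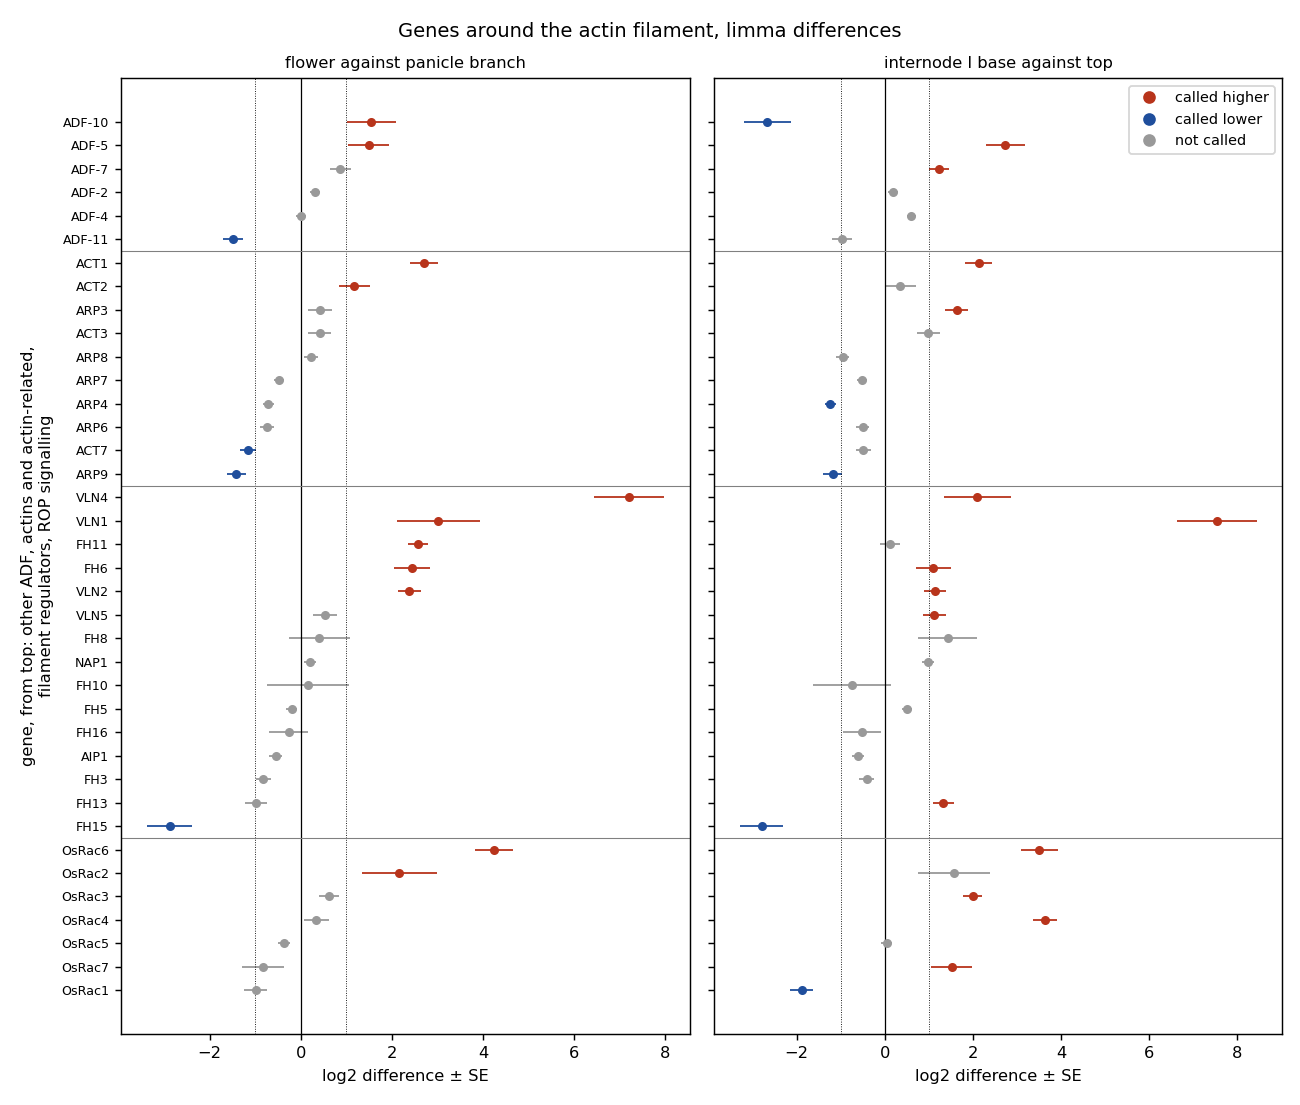
Differences with limma's standard errors (log2) for 38 genes of 4 lists around the actin filament, flower against panicle branch on the left and internode I base against top on the right, with dotted lines at 2-fold. VLN4 lies farthest out on the left at 7.21 and VLN1 on the right at 7.54, and blue points mark genes called lower.

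In the flag sheath 11 of the 38 genes were higher in the base than in the top and none was called lower (28.9% called, against 17.6% of all probe sets, 8.53% higher and 9.03% lower); 4 were lower at an unadjusted p under 0.05 in the same limma fit. OsRac2 led with 6.44 ± 0.92, followed by OsRac6 at 3.37 ± 0.47, VLN1 at 3.05 ± 1.01 and the actin gene ACT2 at 2.69 ± 0.39. All 11 calls were lost when the sheath arrays alone were fitted, and 6 genes were called without the second sheath base array and 17 without the first. None of the 6 other ADF genes was called there, with 4 at an unadjusted p under 0.05; ADF-5 read 10.08 on one sheath base array and 13.18 on the other.

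Between nodes and internode I 3 genes were higher and 1 lower (10.5% called, against 22.2% of all probe sets, 11.5% higher and 10.8% lower). They were OsRac2, higher by 2.46 ± 0.58, ADF-10, OsRac1, higher by 1.01 ± 0.18, and OsRac7, lower by 1.17 ± 0.33. The call of OsRac1 was lost in 5 alternatives, in which the difference was 0.87 to 1.00, and that of OsRac7 with array medians set equal (-0.97). From internode top to panicle branch limma called 0 of the 38, with 6 at an unadjusted p under 0.05, where 3.43% of all probe sets were called, 1.79% higher and 1.64% lower. From blade tip to blade base it called 0, with 2 at an unadjusted p under 0.05, where 0.468% were called, 0.186% higher and 0.282% lower.

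The named genes whose group means followed ADF-1, ADF-6 and ADF-9 most closely were taken by Pearson correlation over the 11 replicated groups, among 2974 candidates. For ADF-1 these were osysl7 of the yellow stripe-like metal chelate transporters (r = 0.973), MKRN (0.971), AldC-alpha (0.960), the calcium-dependent protein kinase gene CPK22 (0.959) and IRL2 (0.958). For ADF-9 they were the expansin gene EXP32 (0.965), CPK22 (0.952), the beta expansin gene EXPB10 (0.943), DL, a YABBY gene of carpel and midrib development (0.939), and the sugar transporter gene OsSWEET5 (0.929). CPK22 stood on both lists.

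For ADF-6 the closest were DCW11 (0.949), the formin gene FH11 (0.946), the sucrose synthase gene OsSUS3 (0.933), CPK6 (0.932) and the zinc finger gene OsC3H30 (0.927). DCW11 and OsSUS3 had their second highest means, 10.44 and 6.61, in the internode base, as ADF-6 did. FH11 and OsC3H30 had theirs in node I and CPK6 in the blade base. The internode base was among the groups by which these genes were chosen, so a shared place there is no separate result. A close correlation did not mean a like size of change: the flower mean of MKRN was 12.29 and its panicle branch mean 10.81.

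On the second blade middle array osysl7 read 10.55 against 3.11 and 6.06 on the other arrays of its group, CPK22 read 9.30 against 4.21 and 2.14, and EXP32 read 8.98 against 1.02 and 2.78. DCW11 read 8.71 against 8.60 and 8.60, and FH11 6.71 against 6.36 and 6.76. The rise did not divide the lists: MKRN, close to ADF-1, read 10.69 against 10.67 and 10.51. DL, close to ADF-9, read 6.80 against 6.12 and 5.78, and CPK6, close to ADF-6, read 5.64 against 4.58 and 1.89. Without that array all 5 genes named for ADF-6 remained its closest, while OsSPPL3 replaced IRL2 for ADF-1 and MADS4 replaced OsSWEET5 for ADF-9.

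The tested genes nearest to ADF-1, ADF-6 and ADF-9 in the gene table did not have their flower levels. The 12 nearest genes with a tested probe set, 4 for each, lay 1 to 5 places away. They differed between flower and panicle branch by -0.91 to 1.05. Genes between them without a tested probe set were passed over. HMA5, near ADF-6, was the one called (1.05, limma, adjusted p = 0.0285), and it was also the highest. In this comparison 28.7% of all probe sets tested were called, 12.7% higher and 15.9% lower.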

How the data were processed

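Total RNA of 35 samples was labelled as biotinylated cRNA, per the labels' protocols, and hybridized to 1-colour Affymetrix Rice Genome Arrays. The intensity values that the authors deposited are linear, run from 0.0536 to 66643 and share a trimmed mean of 500.06 to 500.08 per array, as the values show. Their software was not given in the sources used here. Groups follow the labels, which number the arrays of a group as biological replicates. Nothing says that each came from its own plants, so a p-value here reflects only the spread between these samples, which may be technical. The number of value columns without a sample was 0.

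Values were set to a floor of 1, taken to log2 and quantile-normalized over 35 arrays, since array medians ran from 5.39 to 6.36. The 123 control probe sets were left out. The 38648 of 57258 probe sets at or above 5.83 on at least 3 of 32 replicated arrays were tested in 1 linear model with a mean for each of 11 groups (limma 3.58.1, R 4.3.3; 21 residual degrees of freedom), with the spread of a probe set pooled over groups. The 3 whole-blade arrays were kept out of the fit. The 6 comparisons are adjusted by Benjamini-Hochberg over all probe sets tested, and called means an adjusted p under 0.05 and at least a 2-fold difference. No depth exists for arrays; their number limits the precision.

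The 3 genes, the lists and the comparisons were chosen with earlier results of these data known. Genes are named from the platform annotation, with symbols updated through the gene number, and at the brightest probe set by mean; 28 of 39 marker genes had one. The rule for named genes took the 3 ADF genes, all other ADF genes, up to 4 called genes of the largest change per list and comparison with any other member a sentence needs, and the 5 genes closest in group means to each of the 3. On arrays simulated for flower against panicle branch over 38648 probe sets, limma recovered 76 of 100 added changes of 3 (log2), 43 of 100 changes of 1.5, and made 2 false calls. The simulation changed only these probe sets, where 28.7% were called in the data, and gave each probe set 1 spread for all groups. Its rates therefore check the fit and are not rates for the data. Alternatives were the deposited scale, equal array medians, an offset of 16, no filter, the replicate number as a block, leaving out probe sets with the suffix _s_at or _x_at, each array left out in turn, and only the compared arrays.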

Additional observations from a re-analysis of the deposited data

Results flagged for a closer look

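For some of the 6 other ADF genes, the difference between base and top was not the same in all organs, by limma's test of the difference itself. Internode, sheath and blade were compared in pairs, and only the called differences are given. ADF-2 and ADF-4 had none. The share of all probe sets called in these tests was not computed, so the calls are not read as particular to ADF genes. For ADF-5 it was larger in the internode than in the blade by 3.22 (adjusted p = 0.00032), and for ADF-7 by 1.39 (adjusted p = 0.00134). For ADF-10 the internode value minus the sheath value was -3.31 (adjusted p = 0.004), and the sheath value minus the blade value was 2.49 (adjusted p = 0.0311), a call lost in 7 alternatives. For ADF-11 the internode minus the sheath value was -1.15 (adjusted p = 0.0175), lost in 3 alternatives, among them the fit without the first sheath base array (-0.59).

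ADF-9 was higher at the base in the internode, by 2.88, with every base array above every top array, and lower at the base in the sheath, by -2.35, with every base array below. In the blade its base exceeded the tip by 3.05, again with no overlap. These differences between organs were not tested, and nearly all of the arrays lay below the median of all values.

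On the second flag blade middle array, whose group enters no comparison, ADF-1 read 8.44, ADF-6 6.28 and ADF-9 8.41, above the other arrays of that group. Most probe sets with a wide flower margin and the beta expansin gene EXPB9 were also high on it. The floral organ MADS genes summed to 906 against 885 and 766, mostly from MADS16, and 3 of the 5 were highest on that array. The part of flower RNA in these levels was not tested.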

How the results depend on the processing

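Of 391 alternative values of answers to a comparison 378 stayed within the spread between replicates or within 1.5 times the count, and no called difference changed sign; of 1143 alternative calls of single genes 56 were lost and 6 gained. Sign changes occurred for ADF-1 in the internode, ADF-6 in the sheath and nodes and ADF-9 in the nodes, where the reported difference was within its standard error. The cause was not tested except where fewer arrays give the change by construction. On log2(signal + 16) the flower against panicle branch difference of ADF-6 was 8.44, that of ADF-9 was 1.12 for panicle branch against internode top and 1.00 for internode base against top, and 1 list gene was called for panicle branch against internode top. With only the compared arrays, and so fewer degrees of freedom, 394 probe sets were called in place of 1326 for panicle branch against internode top, 1123 in place of 6787 with 0 list genes for the sheath, and 2 in place of 181 for the blade. With 1 array left out in turn, the flower against panicle branch difference ran from 8.32 to 8.97 for ADF-1, 9.94 to 10.56 for ADF-6 and 8.53 to 9.49 for ADF-9, with 13 to 17 list genes and 10061 to 10804 probe sets called. For the internode the ranges were -1.85 to 0.24, 1.67 to 2.54 and 2.07 to 4.10 for ADF-1, ADF-6 and ADF-9, with 18 to 20 list genes. For the sheath they were 0.16 to 0.88, -1.49 to 2.64 and -3.29 to -1.41, with 6 to 17 list genes and 2837 to 9879 probe sets, the extremes of ADF-6 and of both counts falling on the sheath base arrays. For the blade they were 1.00 to 3.34, 1.09 to 2.26 and 2.07 to 4.02, with 129 to 217 probe sets. For panicle branch against internode top they were 1.75 to 3.84, -2.45 to -1.62 and 2.18 to 4.21, with 902 to 1402 probe sets, and for the nodes 1.54 to 2.58, -0.37 to 0.04 and -0.55 to 0.59.

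With the replicate number as a block, 11036 probe sets and 15 list genes were called for flower against panicle branch, and no count moved by over 1.5 times. Deviations of same-numbered arrays from their group means correlated at -0.106 to 0.06. These values show no shared effect of the number, and they cannot tell whether same-numbered samples came from the same plants. Leaving out the second blade middle array was an alternative added after seeing the data. The blade middle enters none of the comparisons, so the differences stayed as they were by construction. For flower against panicle branch the standard error of ADF-1 was 1.14 in place of 1.31, and 221 probe sets were called for the blade in place of 181. Most levels of the 3 genes outside the flower are below the median of all values, where signal over background limits what can be ordered.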
